A study of Heliocidaris erythrogramma with 7 samples.

Results

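The genes *giant*, *tll*, *lmo4*, *acsc* and *roral* encode regulators of transcription that the study listed as candidates for the development of the adult rudiment in *Heliocidaris erythrogramma* (*He*), a sea urchin whose larva does not feed and builds the adult body early. They were taken by name from the feature list of the deposited counts, and each name matched 1 feature, which makes 5 of 38707 features (*giant* HER_17334.t1, *tll* HER_35851.t1, *lmo4* HER_48006.t1, *acsc* HER_26992.t1 and *roral* HER_38058.t1_HER_38055.t1). The study chose its candidates for a late peak and for enrichment in rudiment ectoderm (verified or putative) or posterior ectoderm, on an atlas that includes these libraries. The levels over time and across cell groups and the sharing of cells below are thus a description and not independent evidence. The atlas also covers later larval time points, and the study's late class peaked after the last time point here. A highest level in the last library here is therefore not the late peak of the study, and later rudiment cells are not covered. The question here was when each gene is detected, in which cells, and whether the genes share cells.

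Dissociated and methanol-fixed *He* embryos and larvae were profiled by single-cell RNA-seq at 6, 9, 12, 16, 20, 24 and 30 hours post fertilization (hpf), with 1 library per time point. Nothing in the labels separates cultures or parents, so time point and library cannot be told apart, and no test across time points was possible. The 7 libraries kept 23156 of 23173 barcodes and 46491405 unique molecular identifiers (UMIs, counts of single captured molecules). Kept cells per library ranged from 486 at 16 hpf to 5346 at 30 hpf, and the median depth ranged from 1273 UMIs at 30 hpf to 2581 UMIs at 6 hpf. Of 23109 distinct barcode sequences, 64 occurred in more than 1 library.

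Sea urchins form the adult ectoderm from a vestibule on the left side of the larva, which meets the left coelomic pouch to make the rudiment, and in *He* this begins within the period sampled here. In *Drosophila*, giant is a bZIP factor and tailless an orphan nuclear receptor, and both are gap genes that divide the embryo into regions. Relatives of tailless are known in vertebrates from neural progenitors. LMO4 is a LIM-only protein that binds other regulators rather than DNA, achaete-scute factors are proneural bHLH proteins that start neuron formation, and ROR proteins are nuclear receptors that bind DNA as monomers.

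All 5 genes had their highest level at 30 hpf, the last time point here, but they reached it by different courses. Levels are given as UMIs per 1000000 UMIs of the library (CPM), with exact Poisson 95% intervals for the count of the gene, and these intervals cover counting error only. *giant* was at 4.39, 9.19, 14.3, 25.6, 11.05, 38.5 and 203.5 CPM at 6, 9, 12, 16, 20, 24 and 30 hpf. It was thus found in every library, but its early levels rested on few cells. At 6 hpf 16 cells held its 25 UMIs, and at 16 hpf 13 cells held 24, with 9 of them in a single cell. The 30 hpf level of *giant* was 5.28-fold its 24 hpf level (interval of the ratio 4.69 to 5.96).

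*tll* had 1, 1 and 3 UMIs in the libraries of 6, 9 and 12 hpf, and then 8.54, 21.7, 22.4 and 45.9 CPM at 16, 20, 24 and 30 hpf. It was the only one of the 5 genes at or under the limit of 3 UMIs in every early library. The level was 23.1-fold higher at 16 hpf than at 12 hpf, but the interval of that ratio ran from 5.55 to 135 because the counts were 8 and 3. Its levels at 24 and 20 hpf differed by 1.03-fold (0.811 to 1.33), so a plateau at these times was followed by a 2.05-fold higher level at 30 hpf than at 24 hpf (1.71 to 2.45).

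*lmo4* and *roral* were both found at 6 hpf, had their lowest level at 12 hpf and were higher again later. *lmo4* was at 24.0, 8.54, 2.09, 14.9, 28.1, 42.1 and 109 CPM over the 7 time points. *roral* was at 19.8, 16.0, 3.82, 5.34, 6.05, 22.9 and 48.5 CPM. At 6 hpf their UMIs were spread thinly, with 132 cells holding on average 1.04 UMIs of *lmo4* and 110 cells holding 1.03 of *roral*. At 30 hpf the highest count in a single cell was 14 UMIs for *lmo4* and 5 for *roral*.

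*acsc* was high at separate times. It was at 12.6, 1.02, 24.4, 19.2, 10.8, 23.5 and 36.1 CPM, and the 12 hpf level was 23.9-fold the 9 hpf level (13.1 to 48.6). At 12 hpf as at 30 hpf a single cell held up to 11 UMIs, against a highest count of 1 UMI per cell at 9 hpf.

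**Figure D1:**
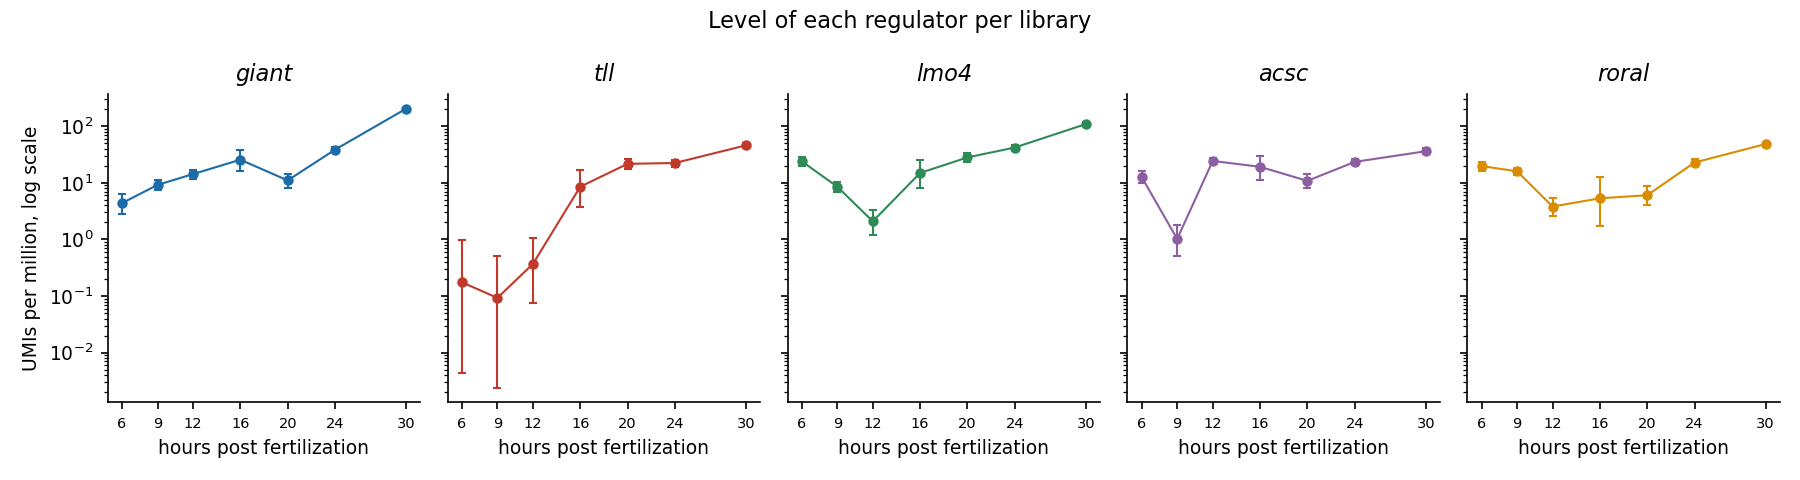
Level of each gene (CPM, log axis) against hours post fertilization, with exact Poisson 95% intervals and 1 library per point. Each gene is highest at 30 hpf, *lmo4* and *roral* are lowest at 12 hpf, *acsc* is lowest at 9 hpf, and *tll* rests on 1 to 3 UMIs up to 12 hpf.

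The steps between neighbouring time points were set beside those of all 18093 features with at least 20 UMIs over the 7 libraries, with a step called at a 2-fold difference of CPM + 1. Between 24 and 30 hpf, *giant*, *lmo4*, *roral* and *tll* were called higher, at 5.28-, 2.59-, 2.12- and 2.05-fold, and *acsc* was at 1.54-fold (1.28 to 1.86), while 2.56% of all features were called higher at this step. *tll* and *roral* lie at the threshold, and they lose the call with median-of-ratios scaling, which leaves 2 of the 5 genes called. Between 20 and 24 hpf, *roral* (3.79-fold), *giant* (3.49-fold) and *acsc* (2.16-fold) were called higher, against 2.02% of all features. Since late peaks were one of the criteria for choosing these genes, nothing is read from these shares.

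The earlier steps were called more often among all features. From 6 to 9 hpf *acsc* and *lmo4* were called lower, with 11.7% of features, and from 9 to 12 hpf *lmo4* and *roral* were called lower, with 15.7%. *acsc* was called higher from 9 to 12 hpf, where 8.39% of features were. From 12 to 16 hpf *tll* and *lmo4* were called higher, with 15.8% of features. From 16 to 20 hpf *tll* was called higher and *giant* lower, where 8.79% and 6.19% of features were called in those directions. The 16 hpf library held only 486 cells, and without it the steps from 12 to 20 hpf were 4.05 for *tll*, 3.24 for *lmo4*, -1.10 for *acsc* and -0.34 for *giant* on the log2 scale.

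The share of cells with at least 1 UMI was compared after each cell was thinned to 500 UMIs, which left out 499 shallower cells. At 30 hpf the shares were 5.62% for *giant* (Clopper-Pearson 95% interval 5.01 to 6.28), 4.03% for *lmo4* (3.51 to 4.60), 1.84% for *roral* (1.49 to 2.25), 1.76% for *tll* (1.42 to 2.16) and 1.55% for *acsc* (1.23 to 1.93), of 5161 cells. At 24 hpf they were 1.54%, 1.66%, 1.25%, 1.02% and 1.34% in the same order of genes, of 3441 cells. The intervals of the 2 libraries are well apart for *giant* and *lmo4*, meet closely for *tll* (up to 1.41% at 24 hpf and from 1.42% at 30 hpf) and overlap for *roral* and *acsc*. These verdicts turn on the thinning: another one gave 1.88% at 30 hpf and 0.872% at 24 hpf for *roral* and 1.82% and 1.34% for *tll*, and 1000 UMIs per cell gave 4.43% and 1.69% for *roral* and 4.03% and 2.01% for *tll*. Without thinning the 30 hpf shares were 10.7%, 10.3%, 5.33%, 4.51% and 3.25%, and here *acsc* was at its highest share at 6 hpf, at 3.39%, at a median depth of 2581 UMIs against 1273.

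Before 16 hpf *tll* was found in 0 of 2065 thinned cells at 6 hpf, which allows a share of up to 0.145%, in 0 of 4034 at 9 hpf, which allows up to 0.0744%, and in 1 of 4582 at 12 hpf. At 20 hpf 1.37% of cells held it (0.979 to 1.86), close to the 1.02% at 24 hpf. For *giant* the share at 20 hpf was 0.411% (0.212 to 0.716), so its share and summed level at 24 and 30 hpf both stood apart from those at 20 hpf. They did not stand apart between 16 and 24 hpf, where the 16 hpf intervals (0.137 to 1.93% and 16.4 to 38.1 CPM) overlapped those at 24 hpf. At 30 hpf cells with a given gene were deeper than others: their median depth lay between 1588 UMIs for *acsc* and 1842 for *tll*, against 1273 for all cells.

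**Figure D2:**
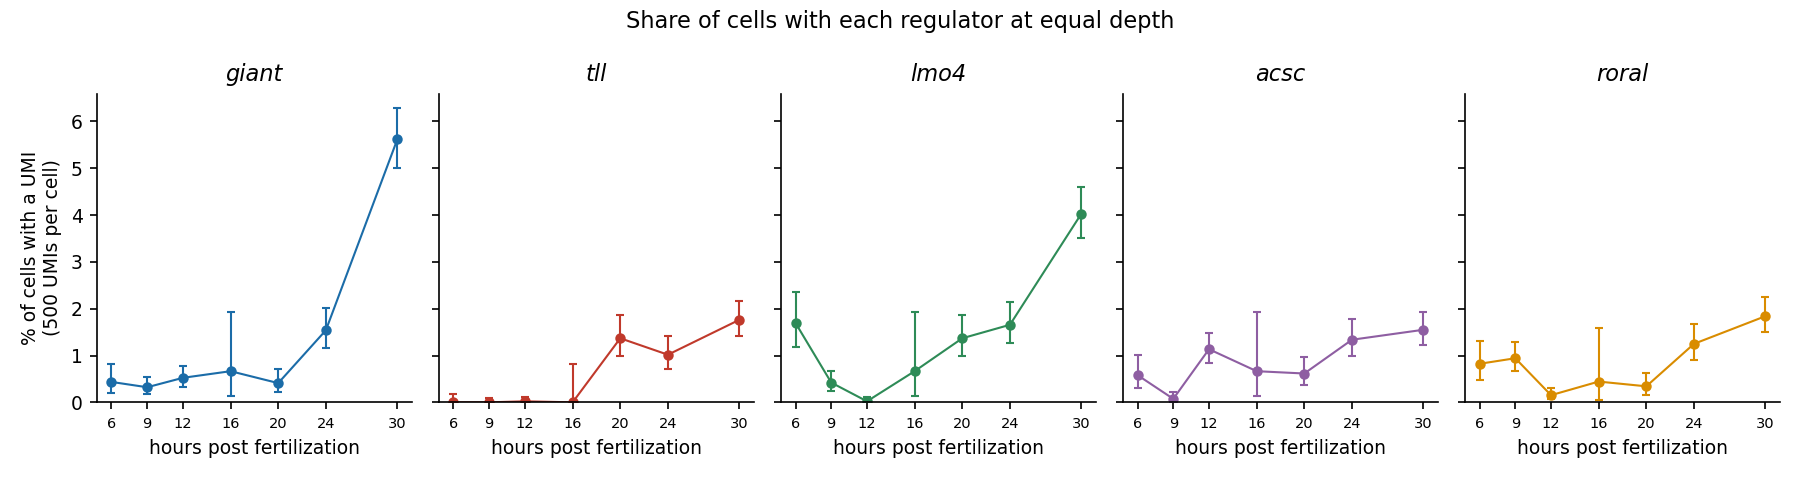
Share of cells (percent) with at least 1 UMI of each gene after thinning to 500 UMIs per cell, against hours post fertilization, with Clopper-Pearson 95% intervals and 1 library per point. *giant* reaches 5.62% and *lmo4* 4.03% at 30 hpf, and the other 3 genes stay under 2%.

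To see in which cells the genes lie, all cells were clustered without the 5 genes among the variable features, and clusters were named only from marker lists without them. Of 45 clusters, 24 met the naming rule. The cluster called Rudiment Ectoderm (Verified)-like held 899 cells, of which 898 came from the 30 hpf library, so cell group and library cannot be told apart for it. It met 3 of 5 markers of that name over all other cells of all libraries (*dlx*, *msx* and *wnt3*), of which *dlx* is a Distal-less homeobox gene. Clusters 12 (697 cells at 30 hpf) and 28 (313 cells at 24 hpf) met 4 of the 5, these and *fn3/egf-2*. Both stayed unnamed because their leading genes went against the name. In cluster 12 at 30 hpf *giant* was at 6.34 CPM, *tll* at 25.3 CPM and *lmo4* at 38.01 CPM. Which of these clusters matches the cell type of the study was not tested. Within the 30 hpf library, *dlx* was at 955 CPM in the Rudiment Ectoderm (Verified)-like cluster against 117 CPM in other cells. *msx* was at 175 against 63.7 CPM and *wnt3* at 84.4 against 43.9 CPM (1.92-fold), so within this library 2 of the 5 markers were 2-fold higher. But *egfi* was lower, at 307 against 611 CPM, and so was *fn3/egf-2*, at 71.4 against 252 CPM. The Left Ectoderm marker *prdm14-1* was at 1378 against 187 CPM. The study tied this cell type to tissue through a single transcript of *egfi*, an extracellular matrix gene, in later larvae. The level of *egfi* here sums 5 features of that name, so that transcript by itself was not tested. The name here follows the marker rule, and the summed *egfi* level goes against it. The Left Ectoderm markers *dlx* and *prdm14-1* differed more (8.14- and 7.36-fold) than any marker of the name other than *dlx*. The summed level of the 5 markers of the name was 1593 CPM in the cluster against 1088 CPM outside.

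Markers of other ectodermal and early types were in part higher in this cluster. The 6 Larval Ectoderm markers summed to 801 CPM against 630 CPM in the other 30 hpf cells, with *gsc* at 4.23-fold and *soxb2* at 2.50-fold. *nodal* was lower, at 1.86 against 58.5 CPM, and so were *foxabl*, *tbx2/3* and *univin*. The 4 Early Endomesoderm markers summed to 360 against 221 CPM through *foxn2/3* alone, at 312 against 75.6 CPM (4.12-fold). *foxa* (38.5 against 59.6 CPM), *hox11/13b* (9.31 against 64.5 CPM) and *wnt1* (0.621 against 21.2 CPM) were lower. The 4 Posterior Ectoderm markers summed to 489 against 821 CPM. Markers of pigment, blastocoelar, skeletal and neural cells were lower. The 4 Pigment markers summed to 31.7 CPM against 2386 CPM in the other 30 hpf cells, the 4 Blastocoelar markers to 45.9 against 2758 CPM, and of the 4 Skeletal markers *msp130r2*, *sm37* and *sm50* were at 0. The 3 Neural markers summed to 4356 against 6700 CPM, with *secrtag* and *syt4* at 3.104 and 0.621 CPM against 22.5 and 8.88 CPM. The cluster's cells were deeper, with a median of 1689 UMIs against 1184.

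*tll* was the gene that this cluster held most completely. It was at 173 CPM there (153 to 194) and at 11.1 CPM in the other 30 hpf cells (8.56 to 14.1), a 15.6-fold difference, and the cluster held 278 of its 343 UMIs. The next clusters were a Gut and Left Coelomic Pouch-like one at 47.3 CPM (20.4 to 93.2, from 8 UMIs), and 3 unnamed ones at 28.5, 25.3 and 16.6 CPM, which do not differ from each other beyond their intervals. In 7 of the 15 clusters with at least 50 cells at this time no UMI of *tll* was found. Of thinned cells, 7.85% in the cluster had *tll* (6.17 to 9.81) against 0.492% of others (0.305 to 0.751), and in Pigment-like cells, used as background for free RNA, it was found in 0 of 223, which allows up to 1.35%, at a median depth of 1232 UMIs.

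*lmo4* had its highest levels in 2 cell groups that do not differ within their intervals, a Neural-like cluster of 89 cells at 359 CPM (257 to 489) and the Rudiment Ectoderm (Verified)-like cluster at 356 CPM (328 to 387). Posterior Ectoderm-like cells followed at 102 CPM (74.3 to 137), apart from both. The Rudiment Ectoderm (Verified)-like cluster held 574 of 814 UMIs, and the gene was 8.70-fold higher there than in the other cells of the library, at 41.0 CPM. In Pigment-like cells 0 of 223 thinned cells had it, against 13.5% in the Rudiment Ectoderm (Verified)-like cluster (11.3 to 15.9).

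*giant* was high in several cell groups. Its highest level at 30 hpf was in a Gut and Left Coelomic Pouch-like cluster of 206 cells, with *foxd-1* and *alx4* among its leading genes, at 909.6 CPM (819 to 1007), where 25.7% of thinned cells held it. The Rudiment Ectoderm (Verified)-like cluster came next at 496 CPM (462 to 532) and with 17.8% of thinned cells (15.4 to 20.5). This cluster of 898 cells held 799 of the 1520 UMIs of *giant*, and the smaller pouch-like one held 372. A second Gut and Left Coelomic Pouch-like cluster was at 390.2 CPM (302 to 496), an unnamed cluster led by *hox8-1*, *myod2* and *pitx1* at 272 CPM (230.1 to 319) and Pigment-like cells at 163 CPM (121 to 215). At the low end, 11.6 CPM or less was found in Posterior Ectoderm-like cells and in the unnamed clusters 12, 25, 2 and 43, and of the Posterior Ectoderm-like cells 3 of 365 thinned cells held *giant* (0.822%, median depth 1113.5 UMIs).

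*acsc* was highest in the Neural-like cluster, at 431 CPM (318 to 572), where 16 of 88 thinned cells had it. In the Rudiment Ectoderm (Verified)-like cluster it was at 87.5 CPM (73.7 to 103), which was above every cluster but the Neural-like one by interval, and these cells held 141 of its 270 UMIs. Blastocoelar-like, Pigment-like and the unnamed clusters 25 and 33 had no UMI of *acsc*.

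*roral* was no higher in this cluster than outside it. It was at 49.0 CPM in the Rudiment Ectoderm (Verified)-like cluster (38.8 to 61.1) and at 48.3 CPM in the other 30 hpf cells (42.8 to 54.3), a ratio of 1.02. Its highest level was in Blastocoelar-like cells at 184 CPM (148 to 225), followed by the Gut and Left Coelomic Pouch-like cluster of 206 cells with highest *giant* at 127 CPM (94.96 to 167) and the unnamed cluster led by *hox8-1* at 74.8 CPM (53.7 to 102), with neighbours in this order overlapping. In Posterior Ectoderm-like cells, a type also in the study's selection, *roral* was at 29.4 CPM at 30 hpf (15.7 to 50.3). No cluster was named for the putative rudiment ectoderm, so enrichment there was not tested.

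**Figure D3:**
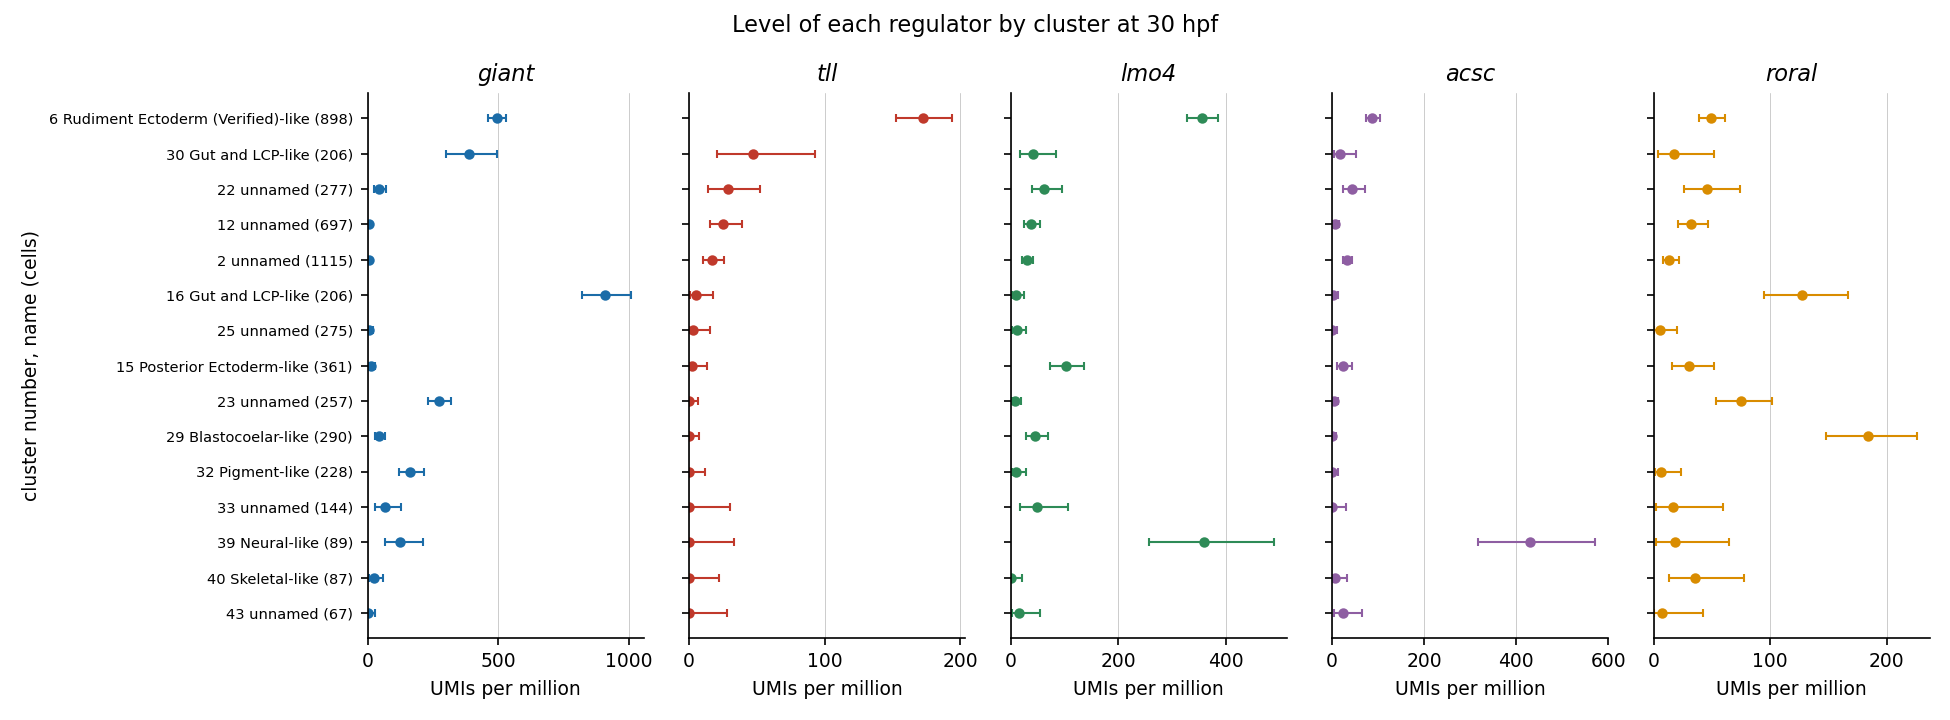
Level of each gene (CPM) in the 15 clusters with at least 50 cells at 30 hpf, ordered by the level of *tll*, with exact Poisson 95% intervals and separate linear axes. *tll* peaks in the Rudiment Ectoderm (Verified)-like cluster at 173 CPM, *giant* in a Gut and Left Coelomic Pouch (LCP)-like cluster, *acsc* in Neural-like cells and *roral* in Blastocoelar-like cells, while *lmo4* is equally high in 2 clusters.

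The genes also differed in their levels outside the Rudiment Ectoderm (Verified)-like cluster. The comparison below is unequal, because the 30 hpf side leaves out the cluster with most UMIs of *giant*, *tll*, *lmo4* and *acsc*. The 24 hpf side keeps all its clusters, so a low ratio does not show a lower level in like cells. In the 30 hpf cells outside the Rudiment Ectoderm (Verified)-like cluster, *lmo4* was at 41.0 CPM and *acsc* at 22.0 CPM, 0.973- and 0.939-fold the levels of the whole 24 hpf library. *tll* was at 0.495-fold of it outside the cluster. *giant* and *roral* were higher also outside the cluster, at 123 CPM (3.19-fold) and 48.3 CPM (2.11-fold). More cells of a type and more RNA per cell cannot be told apart in summed levels of a library.

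At 24 hpf the Rudiment Ectoderm (Verified)-like cluster had no cell. Cluster 28, which met 4 of the 5 markers of that name, had 313 cells, with *giant* at 7.59 CPM and *lmo4* at 31.6 CPM. Values here are for clusters with at least 50 cells at this time, except where stated. *giant* was at 145 CPM in Pigment-like cells (110.1 to 187) and at 144 CPM in the unnamed cluster led by *hox8-1* (109 to 185.2), and 144 of its 335 UMIs lay in an unnamed cluster led by *cyp27l*, *net* and *arx*, at 82.5 CPM. *lmo4* was at 130 CPM in a Posterior Ectoderm-like cluster (97.3 to 170), and the 36 Neural-like cells, under that limit, were at 127 CPM (60.9 to 234), within the same interval. *tll* was between 36.7 and 52.5 CPM in its 5 highest clusters, which overlap in their intervals, so no cluster stood out for it. Cluster 28 was among these 5. *roral* was highest in Blastocoelar-like cells, at 82.4 CPM (63.0 to 106), as at 30 hpf. *acsc* was at 559 CPM in the same 36 Neural-like cells, with 44 UMIs, and 11 of these 36 thinned cells had it.

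Earlier still, the genes lay in other cell groups. At 12 hpf *acsc* was at 125 CPM in an Animal Pole Domain-like cluster, which held 132 of its 198 UMIs with 12.5% of the cells. At the same time *giant* was at 54.8 CPM in Early Mesoderm-like cells and at 41.7 CPM in Early Endomesoderm-like cells, which together held 92 of its 116 UMIs. *lmo4* and *roral* showed no such concentration at 6 hpf, where their UMIs followed cluster size, with 52.6% and 47.8% of them in the cluster that held 58.8% of cells.

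Pairwise co-detection asked whether the genes share cells. For each pair, the number of thinned cells with both genes was divided by the number that the 2 single shares give if the genes were spread independently, and a ratio of at least 2 was called. At 30 hpf 5 of the 10 pairs were called, all of them between *giant*, *tll*, *lmo4* and *acsc*. *giant* and *tll* were found together in 21 of 5161 cells against 5.11 expected, a ratio of 4.11 (2.54 to 6.27). Seen from the cells, 23.1% of the 91 cells with *tll* also held *giant*, against 5.31% of cells without *tll*.

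*tll* and *lmo4* shared 12 cells against 3.67 expected, a ratio of 3.27 (1.69 to 5.71). *giant* and *lmo4* shared 24 cells against 11.7, a ratio of 2.05 (1.32 to 3.05), which lies at the threshold. *giant* and *acsc* shared 10 cells against 4.50, a ratio of 2.22 (1.07 to 4.09), and *tll* and *acsc* 3 cells against 1.41, a ratio of 2.13 (0.439 to 6.21). The last of these rests on 3 cells, and another random thinning gave 0.845 from 1 cell, 1000 UMIs per cell gave 3.84 from 15 cells (2.15 to 6.32) and full depth within depth classes gave 2.30 from 24 cells (1.48 to 3.42).

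None of the 4 pairs with *roral* was called, with ratios between 0 and 1.12, although the other thinning put *giant* and *roral* at 2.05 (1.02 to 3.66). *lmo4* and *acsc* were found together in 0 of 5161 cells against 3.22 expected in this thinning, which allows a share of up to 0.0581% for this draw only. That absence does not hold at other depths: at 1000 UMIs per cell 21 cells had both against 8.31 expected, a ratio of 2.53 (1.57 to 3.86), and another thinning to 500 UMIs gave 4 cells against 2.85, above that limit. The pair is thus not settled at 500 UMIs.

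The background for these calls is the share of all features found in at least 20 thinned cells that reach a ratio of 2 with the same gene. At 30 hpf this was 7.71% with *giant*, 15.6% with *tll*, 8.87% with *lmo4*, 14.8% with *acsc* and 16.0% with *roral*, of 8739 features, and the medians over these features lay between 0.796 and 0.973. Among the other 4 genes, *giant* and *tll* each reached the ratio with 3, *lmo4* and *acsc* with 2 and *roral* with none. Since enrichment in rudiment or posterior ectoderm was a criterion for choosing these genes, nothing is read from these counts.

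In all, 70 thinned cells at 30 hpf held at least 2 of the 5 genes, against 39.8 expected from the single shares, and 5 cells held 3, against 1.02. Of these 5 cells, 4 held *giant*, *tll* and *lmo4* and 1 held *giant*, *tll* and *acsc*. Without thinning, 56 of the 898 cells of the Rudiment Ectoderm (Verified)-like cluster held *giant*, *tll* and *lmo4* together, and 350 held none of the 3.

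Nearly all shared cells lay in one cluster. The Rudiment Ectoderm (Verified)-like cluster held 20 of the 21 cells with *giant* and *tll*, 11 of the 12 with *tll* and *lmo4*, 21 of the 24 with *giant* and *lmo4* and 10 of 10 with *giant* and *acsc*. It held 1 of the 6 cells with *giant* and *roral*. Within the cluster alone no pair reached a ratio of 2, an alternative added after the data were seen. *giant* and *tll* were at 1.60 there (0.983 to 2.46), *giant* and *acsc* at 1.65 (0.793 to 3.02), *tll* and *lmo4* at 1.17 (0.585 to 2.08) and *giant* and *lmo4* at 0.982 (0.610 to 1.49). Without thinning, where depth differs between cells, the ratio of *giant* and *tll* in the cluster was 1.73 (1.44 to 2.07), from 107 cells. By this measure *giant* and *acsc* were at 1.66 (1.24 to 2.16), *tll* and *lmo4* at 1.31 (1.08 to 1.58) and *giant* and *lmo4* at 1.23 (1.05 to 1.42). *lmo4* and *acsc* were at 1.29 (0.953 to 1.70) and *tll* and *acsc* at 1.22 (0.777 to 1.82). The pairs with *roral* were between 0.589 and 0.968.

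**Figure D4:**
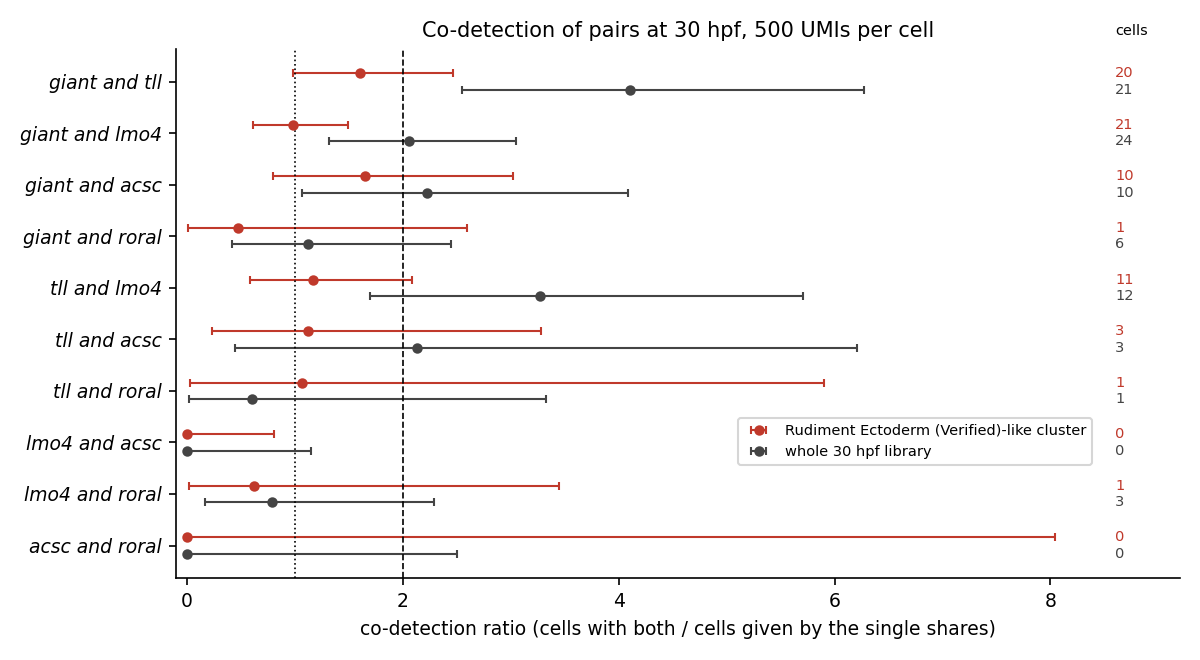
Co-detection ratio of the 10 pairs at 30 hpf, with Clopper-Pearson 95% intervals of the cells with both genes and their number at the right, for the Rudiment Ectoderm (Verified)-like cluster (red) and the whole library (grey). Dotted and dashed lines mark ratios of 1 and 2. For *giant* and *tll* the ratio is 1.60 in the cluster and 4.11 in the library.

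At 24 hpf co-detection could not be resolved at 500 UMIs. No pair was found in more than 2 of 3441 cells, and 7 cells held at least 2 of the genes against 6.15 expected. The ratios of *tll* and *lmo4* (3.45, 2 cells), *giant* and *roral* (3.02, 2 cells) and *tll* and *roral* (2.29, 1 cell) passed 2, with lower bounds of 0.418 or less. At this depth 16.8% of all features reached the ratio with *giant*, 19.0% with *tll*, 16.0% with *lmo4*, 17.3% with *acsc* and 21.2% with *roral*, of 7130 features. The full depth of 24 hpf cells, compared within 3 equal classes of depth (an alternative added after the data were seen), gave *tll* and *lmo4* in 35 cells against 14.6, a ratio of 2.40 (1.67 to 3.32). By the same measure *giant* and *tll* were at 1.10 (0.526 to 2.01) at 24 hpf. At 30 hpf this measure gave 2.80 (2.31 to 3.35) for *giant* and *tll* and 2.81 (2.30 to 3.39) for *tll* and *lmo4*, and the depths of the 2 libraries differ. *acsc* was found with *giant*, with *tll* and with *roral* in 2 cells each at 24 hpf, at ratios of 0.361, 0.419 and 0.454.

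Other features were also ranked by their ratio with each gene at 30 hpf. The 3 given per gene are the highest of 977 features for *giant*, 269 for *tll* and 702 for *lmo4*. They were picked for high ratios, so nothing is read from their standing above the pairs described before. Among features that shared at least 20 thinned cells with *giant* at 30 hpf, the highest ratios were those of *bmp3*, which encodes a BMP family ligand (5.18, 32 cells), *grm6l*, named for a metabotropic glutamate receptor (5.16, 31 cells), and *foxd-1*, a forkhead factor and pouch marker (4.73, 25 cells). For *tll* they were *mtl* (6.02, 24 cells), the unnamed HER_2520.t1 (4.12, 38 cells) and *giant* itself. For *lmo4* they were *grm6l* (4.64, 20 cells), *dmxl* (3.54, 20 cells) and *mtl* (3.29, 30 cells). *bmp3* was found in 110 thinned cells at 30 hpf and in 2 at 24 hpf, and *grm6l* in 107 and in 1.

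The companions of the other genes differed. With *acsc* they were the HMG-box genes *soxc* (4.13, 36 cells) and *soxb2* (2.62, 28 cells) and the Krüppel-like factor *klf13* (3.64, 27 cells). With *roral* they were the unnamed HER_32776.t1 (3.96, 21 cells), *a2col* (3.63, 40 cells) and *tsp1-1* (3.57, 22 cells), of which *a2col* and *tsp1-1* are among the leading genes of Blastocoelar-like clusters. *soxc* and *acsc* shared 18 cells at 24 hpf too, with a ratio of 3.06, and *tsp1-1* and *roral* shared 15, with a ratio of 4.82.

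Likeness of pattern was also measured as the Pearson correlation of log2(CPM + 5) over the 39 groups of cluster and library with at least 50 cells at 20, 24 and 30 hpf, which share libraries and differ in depth. The features most like *tll* were *soxb1* (r = 0.80), *hypp-1875* (0.79) and *fut7* (0.79), and those most like *lmo4* were *dlx* (0.77), *dmxl* (0.76) and *hypp-901* (0.74). For *giant* they were *atub3* (0.70), *abhd3* (0.65) and the nuclear receptor gene *e78a* (0.64). For *acsc* they were the homeobox gene *rax* (0.69), *hypp-2442* (0.68) and *z133-1* (0.62), and for *roral* *rin2l* (0.67), *ehd3* (0.64) and *rfp150l* (0.64). Among themselves, *lmo4* was most like *acsc* (0.58) and *tll* (0.56), *giant* was most like *roral* (0.46), and *giant* and *tll* were at -0.03. *giant* was also high in clusters where *tll* was at or near 0.

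Gene lists of the families and pathways of these genes were counted by name, with features of a name summed. Proneural factors such as acsc act with the Notch pathway, in which delta is the ligand, notch the receptor and hey a target gene. Of 24 neurogenesis and Notch genes, 14 were found in at least 20 thinned cells at 30 hpf, and 8 of these 14 reached a ratio of 2 with *acsc*, against 1181 of 8280 gene names. The highest were *hey* (9.93, 6 cells), *myt1* (7.29, 13 cells), *smadip* (6.54, 21 cells), *soxc* and *delta* (3.79, 3 cells), and *notch* was at 2.66 (8 cells). The median of the 14 was 2.64 with *acsc*, against 0.811 over all names, and 1.15 with *giant*, 1.18 with *tll*, 1.27 with *lmo4* and 0.621 with *roral*. At 24 hpf 6 of 10 measured genes of the list reached 2 with *acsc*, against 1174 of 6926 names, with a median of 2.63 against 0.726. Of these, *isl*, *myt1*, *notch* and *z133-1* shared 5, 7, 4 and 5 cells with *acsc*.

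**Figure D5:**
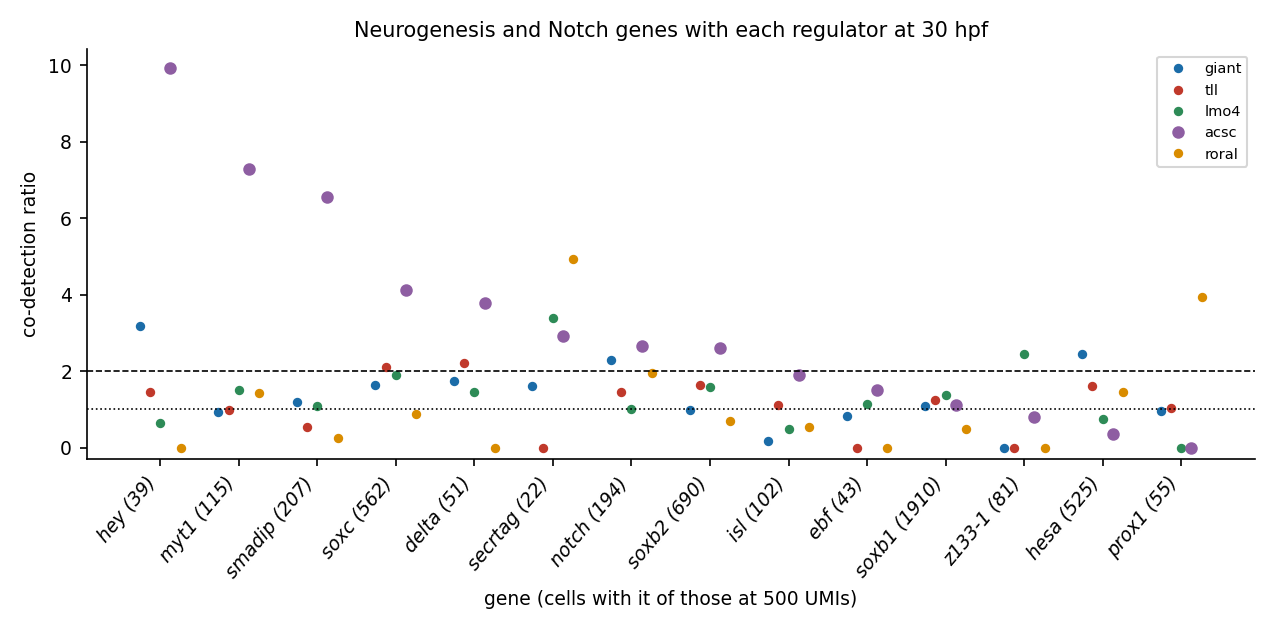
Co-detection ratio at 30 hpf of the 14 neurogenesis and Notch genes found in at least 20 thinned cells (number in brackets) with each of the 5 genes. Dotted and dashed lines mark ratios of 1 and 2. With *acsc* 8 of the 14 lie at or above 2, led by *hey* (6 shared cells), *myt1* and *smadip*.

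*tll* and *roral* are nuclear receptor genes themselves, and 28 other names of this family were matched. Among these, *nr1x*, *e78a*, *nr1m1*, *nr1m2* and *nr1m4* are also candidates that the study chose on the same atlas. The counts of this family below include them and are thus no independent evidence. Of these 25 had at least 20 UMIs, and *nr5a*, *nr1x* and *e78a* were more than 2-fold higher at 30 hpf than at 24 hpf, at 303.5 against 96.5, 215 against 100.2 and 80.5 against 37.8 CPM, while 349 of 13767 names were. The median step of the 25 was 0.35 on the log2 scale, against 0.07 over all names. *nr1x* was found with *giant* (2.88, 64 cells), *lmo4* (2.76, 44 cells) and *tll* (2.43, 17 cells), and the retinoic acid receptor gene *rar* with *giant* (2.68, 64 cells) and *tll* (2.27, 17 cells). Of the 17 family members measured at 30 hpf, 4 reached 2 with *tll*, 3 with *lmo4*, 3 with *roral*, 2 with *giant* and 2 with *acsc*. Over all 8280 names measured, 1233 reached 2 with *tll*, 688 with *lmo4*, 1266 with *roral*, 608 with *giant* and 1181 with *acsc*, so the counts of this and the following lists are to be read against those shares.

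LIM-only and LIM homeobox proteins bind the same LIM domain-binding cofactors. Of 10 names of LIM homeobox and partner genes, 8 had enough UMIs for a step, and *lim1* was lower at 30 hpf than at 24 hpf, at 191 against 475 CPM. None of the 5 measured ones reached a ratio of 2 with *lmo4*, *giant* or *tll*, while *lhx2-1* (3.98, 5 cells) and *awh* (2.30, 2 cells) did with *acsc*. With so few genes, none reaching 2 is near the share over all names. Of 8 names of PAR and C/EBP bZIP genes, the DNA-binding class of giant, 6 were measured at 30 hpf. Of these, *hlfl2* reached 2.17 with *giant* (123 cells), 2.25 with *tll* (40 cells) and 2.04 with *lmo4* (83 cells), *cebpz* reached 2.07 with *tll* (6 cells), and the medians of the 6 were 0.619, 0.707 and 0.922 with these genes. The level of *hlfl2* was 623 CPM at 30 hpf against 366 CPM at 24 hpf.

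The 28 other candidate regulators of the study were chosen on the same atlas and so are no independent evidence. Of 26 with at least 20 UMIs, 6 were at least 2-fold higher at 30 hpf than at 24 hpf and none was 2-fold lower, against 349 higher and 238 lower of 13767 names. Of 22 measured at 30 hpf, 6 reached a ratio of 2 with *acsc*, 5 with *tll*, 3 with *lmo4*, 3 with *roral* and 2 with *giant*, and for *roral* and *giant* these are at the share over all names given above. *lox*, a homeobox gene that marks the posterior ectoderm here, shared 7 thinned cells with *lmo4* (1.93) and none with *giant*, *tll*, *acsc* or *roral* at 30 hpf, but at 24 hpf it shared 6 with *tll* (6.94), 2 with *lmo4* (1.42) and 1 each with *giant* and *roral*.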

How the data were processed

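Single-cell libraries of *He* at 6, 9, 12, 16, 20, 24 and 30 hpf were analysed. The authors deposited, for each library, raw counts of UMIs per feature and cell, made with Cell Ranger 3.1.0 by the submitters' processing notes and not normalized. The 5 genes and all lists were chosen with earlier results of these data known, and the gene lists come from the study's tables and from gene families. Genes named outside these lists were, for each gene, the 3 features most alike in pattern over groups with at least 100 UMIs and the 3 with the highest co-detection ratio.

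A cell was kept if its gene number lay above 200 and below 4000 and its UMI total below 10000. Scrublet (scanpy 1.11.5) called 0.0581 to 3.50% of cells per library, under 0.5% in 5 of 7, so it did not work reliably, and doublets were kept. Cells were thinned to 500 UMIs with numpy 2.4.6, and intervals are exact 95% intervals (scipy 1.17.1), with a limit of 3 counts for a share of 0. Cells were clustered in R 4.3.3 with Seurat 5.3.0 and sctransform 0.4.2, with 6000 variable features less the 5 genes, the percentage of 89 ribosomal protein features regressed out, 195 of 200 principal components and resolution 3. Clusters were named "X-like" from the marker list of the study without the 5 genes, where at least 3 markers were 2-fold over all other cells (5 CPM added) and the leading genes did not go against the name. Size factors came from DESeq2 1.42.0, with no test. The scripts were tested on simulated data. No sequence of these genes was used here.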

Additional observations from a re-analysis of the deposited data

How the results depend on the processing

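No paired analysis was possible because there is 1 library per time point, and no library could be left out of a group. All 5 genes kept their highest level at 30 hpf under every alternative tried for cells and scaling, and 4 of 5 stayed at least 2-fold higher in the Rudiment Ectoderm (Verified)-like cluster under each clustering. Of 409 values recomputed, 349 stayed within their counting interval or within 1.5 times a count. Of these, 27 came from a minimum of 100 UMIs, which all 5 genes passed, so they could not move. Another 16 came from leaving out the filter on cells, which had kept 23156 of 23173 barcodes. The genes called higher from 24 to 30 hpf numbered 4, but 2 with a pseudocount of 5 and 2 with size factors, which shift steps by between -0.33 and 0.21 (log2) and this one by -0.06. The pairs called at 24 hpf numbered 3, but 1 at 1000 UMIs and 1 within 3 equal classes of depth, and those at 30 hpf numbered 5, but 0 within the Rudiment Ectoderm (Verified)-like cluster. Under 50 principal components that cluster was the highest for 2 genes instead of 1. Another thinning took *giant* and *roral* at 24 hpf to a ratio of 0 and *tll* and *acsc* at 30 hpf to 0.845, and *giant* and *lmo4* were at 0.982 within the cluster. The cause was not tested. At 500 UMIs pairs in fewer than about 10 cells are not resolved.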
